A study of Mus musculus with 58 samples.

Results

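The 32 genes described here make sterols and fatty acids or control that synthesis, and were taken from the 24537 genes of the count table by their symbols alone. They comprise 17 enzymes that lead to cholesterol, the cholesterol carrier Stard4, the regulators Srebf1, Srebf2 and Insig1, and 11 genes of fatty acid synthesis and modification, called the lipogenic genes below. RNA was sequenced from whole livers of male C57BL6/J mice that had received an AAV8 vector, a virus used for gene delivery, carrying either Myc, a growth-promoting transcription factor, or the red fluorescent protein mApple as control. Both inserts stood behind the TBG promoter, which is active in hepatocytes, so other liver cells of the same animals were not the target of the vector. The mice also received ruxolitinib, an inhibitor of the JAK1 and JAK2 kinases, or its vehicle by gavage at 45 mg/kg, 2 times daily with a break at weekends, for 30 days. The groups were old Myc ruxolitinib (14 livers), old Myc vehicle (11), old mApple ruxolitinib (9), old mApple vehicle (8), young Myc ruxolitinib (10) and young mApple vehicle (6). Young mice were 4 months old, and old mice were 24 months in the second sequencing batch and 25 months in the first, so among old mice age and batch cannot be told apart. Young livers were all in the second batch, and Myc without ruxolitinib or ruxolitinib without Myc was not analysed here in young mice.

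Cholesterol is built from acetyl-CoA through mevalonate, squalene and lanosterol, and fatty acids are built from acetyl-CoA through malonyl-CoA, with NADPH as the reductant. Both routes are switched on by the SREBP transcription factors, which Scap carries out of the endoplasmic reticulum when sterols are low and which Insig proteins hold back when sterols are plentiful. SREBP-2, the product of Srebf2, mainly drives the sterol enzymes, and SREBP-1c, a product of Srebf1, mainly drives lipogenesis in the fed liver. NF-Y and Sp1 bind beside SREBPs at many of these promoters, and Myc binds the E-box CACGTG.

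Promoter windows, 250 bases before to 50 after the gene's start, were matched for 27 of the 32 genes by symbol in RefSeq's table for GRCm38.p6, and none was used for Fdft1, Fdps, Stard4, Scd1 or Sqle. The CCAAT box bound by NF-Y, searched on both strands, was in 21 of these 27 windows (77.8%), against 37.4% of all 32851 windows. The Sp1 box GGGCGG was in 20 of 27 (74.1%), against 35.7% of all windows. The E-box CACGTG was in 4 of 27, those of Hsd17b7, Sc5d, Insig1 and Elovl5 (14.8%), against 7.15% of all windows. The core of the sterol response element, TCACNCCAC, was in 1 of 27, that of Hmgcs1 (3.7%), against 1.24% of all windows. Such matches are letters in a window and no evidence of binding. The 32851 windows outnumber the 24537 genes of the count table, so they were not limited to genes expressed in liver. Whether expressed genes in general hold these boxes as often was not tested. The Pmvk window, which held none of these letters, was set by a start 453 bases from that of its counted transcript.

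The windows of 4 genes that each passed the test in 2 comparisons are shown because they hold different combinations of these letters. Those of Me1 and Pnpla3, which also passed in 2 comparisons, are not shown. Me1 holds 4 Sp1 boxes, Pnpla3 holds 1 CCAAT box and 3 Sp1 boxes, and neither holds an E-box. Tm7sf2 and Elovl6, which are shown, hold no E-box either, so the windows shown do not give the share with an E-box. Capitals mark the E-box and the CCAAT and Sp1 boxes named above, on either strand, so that a CCAAT box of the other strand reads ATTGG. No marked match overlaps another. Sc5d (chr9:42264251-42264550, minus strand) and Elovl5 (chr9:77917115-77917414, plus strand) hold an E-box and at least 1 CCAAT box, Tm7sf2 (chr19:6067801-6068100, minus strand) holds a CCAAT box and a pair of Sp1 boxes, and Elovl6 (chr3:129532136-129532435, plus strand) holds none of the letters searched.
Sc5d: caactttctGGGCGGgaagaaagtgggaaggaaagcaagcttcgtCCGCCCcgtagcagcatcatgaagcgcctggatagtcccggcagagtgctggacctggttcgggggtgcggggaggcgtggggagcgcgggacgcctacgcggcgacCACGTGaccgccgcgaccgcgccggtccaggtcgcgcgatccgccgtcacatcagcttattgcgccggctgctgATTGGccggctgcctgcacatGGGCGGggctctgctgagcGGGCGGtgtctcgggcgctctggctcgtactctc
Elovl5: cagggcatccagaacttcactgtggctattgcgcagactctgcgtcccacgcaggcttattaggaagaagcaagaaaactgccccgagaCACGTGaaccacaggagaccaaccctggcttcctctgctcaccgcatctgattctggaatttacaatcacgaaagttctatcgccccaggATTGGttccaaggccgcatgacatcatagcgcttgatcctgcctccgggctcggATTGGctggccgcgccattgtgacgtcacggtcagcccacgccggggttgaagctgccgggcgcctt
Tm7sf2: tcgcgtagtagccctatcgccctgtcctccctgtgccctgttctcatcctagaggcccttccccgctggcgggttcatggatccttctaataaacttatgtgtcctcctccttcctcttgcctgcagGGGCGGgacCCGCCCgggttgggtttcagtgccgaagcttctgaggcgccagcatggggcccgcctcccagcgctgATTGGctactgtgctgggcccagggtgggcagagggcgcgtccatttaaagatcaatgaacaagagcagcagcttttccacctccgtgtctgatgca
Elovl6: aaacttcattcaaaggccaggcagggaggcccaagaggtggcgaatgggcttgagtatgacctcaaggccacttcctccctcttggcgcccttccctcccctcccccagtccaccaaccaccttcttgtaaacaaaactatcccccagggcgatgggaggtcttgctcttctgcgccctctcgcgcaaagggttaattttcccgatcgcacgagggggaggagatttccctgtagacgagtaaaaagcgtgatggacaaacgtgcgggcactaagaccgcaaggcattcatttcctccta
The E-box of Elovl5 began 161 bases before the start, and that of Sc5d began 98 bases before it.

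The libraries held 10676098 to 40982340 exon counts each, with a median of 14588357, and no 2 of them were identical. Myc itself served as the check of the vector, although endogenous and delivered Myc were counted together. It had 24.4 to 111 CPM (counts per 1000000 counts of the library, after TMM scaling) in old Myc ruxolitinib livers and 2.35 to 19.3 CPM in old mApple ruxolitinib livers, and 36.1 to 61.5 CPM in young Myc ruxolitinib livers and 4.23 to 22.4 CPM in young mApple vehicle livers, without overlap in either pair. Under vehicle the old groups overlapped, with 6.85 to 132 CPM in Myc livers and 2.93 to 56.8 CPM in mApple livers. The library labelled old Myc vehicle number 870 had 6.85 CPM, and the library labelled old mApple vehicle number 855 had 56.8 CPM. Both levels lie against their labels, which were kept as given and are in doubt, and the Myc contrast under vehicle is given below also without them. Summed markers of hepatocytes reached at least 56330 CPM in every library. Libraries 860 and 861 (old Myc ruxolitinib) had the highest summed Kupffer cell and macrophage markers, at 5192 and 3306 CPM, and library 864 (old mApple ruxolitinib) had 467 CPM of neutrophil markers.

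All 32 genes passed the filter on low counts in every comparison. Per kilobase of the counted transcript, Scd1, the desaturase that makes oleate, had the highest mean level over all libraries at 2625 CPM per kb. Sc5d and Elovl5 followed at 267 CPM per kb each, well inside their spread between livers. Mvd, at 11.6 CPM per kb, and Pnpla3, at 3.82 CPM per kb, were the lowest, but the transcript kept for Mvd has a non-coding accession, so its level may not be that of the coding transcript. Within groups and batches the median residual standard deviation of log2(CPM + 1) was 0.48 for them and 0.24 for the 12757 genes with a mean of at least 1 CPM. Scd1 (1.12), Pnpla3 (1.05) and Thrsp (0.87) had the widest spread, and Srebf2 (0.20) the narrowest. The reads were counted with no strand setting, and 77.4% of the counted exon length of Fdps and 20.9% of that of Fdft1 overlapped other genes, so those levels are uncertain.

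**Figure D1:**
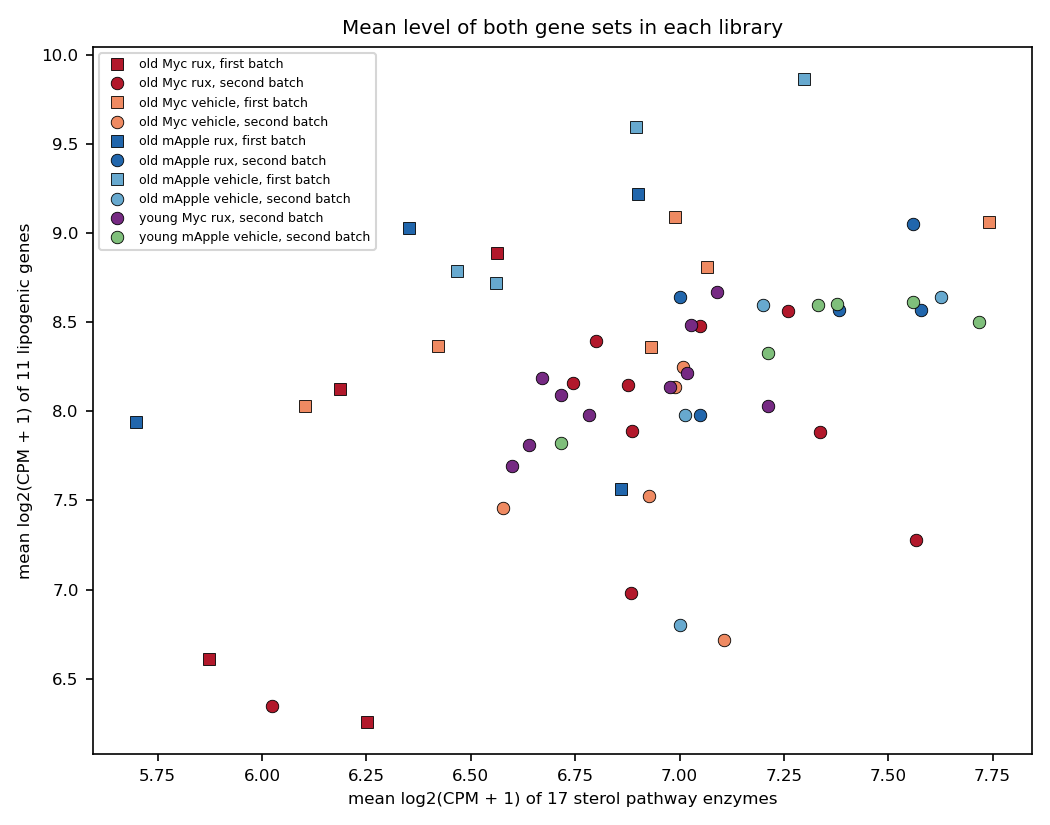
Mean log2(CPM + 1) of the 17 sterol enzymes (horizontal) against that of the 11 lipogenic genes (vertical), 1 point per library, with colour for the group and shape for the batch. Young Myc ruxolitinib libraries lie between 6.60 and 7.21 for sterol enzymes and young mApple vehicle libraries between 6.72 and 7.72, and the lowest lipogenic means are 6.26 and 6.35, both in old Myc ruxolitinib livers.

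The plot of both gene sets shows where single livers stood apart. Old Myc ruxolitinib livers 860, 1154 and 861 had the 3 lowest lipogenic means, 6.26, 6.35 and 6.61 on the log2(CPM + 1) scale. Scd1 showed it most, with 351 CPM in liver 1154 and 1491 CPM in liver 860, while the highest liver of the same group had 18000 CPM. Old Myc vehicle liver 1146 and old mApple vehicle liver 1137 were also low, at 6.72 and 6.803, so a low lipogenic mean occurred under Myc and under mApple.

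Young livers that received Myc and ruxolitinib had lower RNA of the sterol route than young livers that received mApple and vehicle. Of the 32 genes, 15 fell and none rose (46.9% lower), against 14% lower and 13.5% higher among the 12808 genes tested (27.5% in either direction). The test was edgeR's quasi-likelihood test with p-values adjusted over all those genes by Benjamini and Hochberg, and a gene passed at an adjusted p below 0.05. All 17 sterol enzymes had a log2 fold change below 0, with a median of -0.43, and 9 of them passed, whereas the median of all genes was -0.01. Only 4 of the 11 lipogenic genes passed, all lower, and the median of that set was -0.24. In bulk liver RNA, fewer cells of a type and less RNA per cell cannot be told apart, and here the vector and the drug changed together, so their effects cannot be told apart.

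Among the mevalonate enzymes, Hmgcs1, which makes HMG-CoA, had 334 to 629 CPM (median 453) in young Myc ruxolitinib livers, against 334 to 968 CPM (median 739) in young mApple vehicle livers. Its log2 fold change was -0.59 ± 0.18 (SE, adjusted p = 0.0202), and the lowest livers of both groups were at the same level.
Idi1, the isomerase that makes dimethylallyl diphosphate, had 129 to 231 CPM (median 156) in young Myc ruxolitinib livers, against 166 to 363 CPM (median 268) in young mApple vehicle livers. Its log2 fold change was -0.69 ± 0.15 (SE, adjusted p = 0.00151), and only the lowest control liver lay within the range of the other group. The other 4 mevalonate enzymes did not pass, with log2 fold changes of -0.13 for Mvk to -0.48 for the kinase Pmvk (adjusted p = 0.0697).

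At the squalene step, Sqle, the epoxidase that commits squalene to the sterol ring (mm10 chromosome 15, 59315092 to 59331193), had the smallest p of all 32 genes. It had 64.9 to 92.1 CPM (median 79.9) in young Myc ruxolitinib livers, against 74.1, 124, 137, 141, 180 and 191 CPM in the 6 young mApple vehicle livers. Of the control livers, 5 lay above every treated liver and 1, number 1132, lay among them. The log2 fold change was -0.84 ± 0.14 (SE, adjusted p = 0.000175). Fdft1, which joins farnesyl units into squalene, did not pass at -0.38 ± 0.15 (SE, adjusted p = 0.0608). Lss, which closes the ring, did not pass either, at -0.29.

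From lanosterol to cholesterol 6 of 8 enzymes fell. Nsdhl, a C4 demethylation enzyme (mm10 chromosome X, 72918521 to 72958528), had 68.9 to 106 CPM (median 86.2) in young Myc ruxolitinib livers, against 93.0 to 179 CPM (median 140) in young mApple vehicle livers, a log2 fold change of -0.70 ± 0.13 (SE, adjusted p = 0.00036). Msmo1, the C4 methyl oxidase before it, had 123 to 204 CPM (median 146) in young Myc ruxolitinib livers, against 136 to 342 CPM (median 274) in young mApple vehicle livers, a log2 fold change of -0.77 ± 0.16 (SE, adjusted p = 0.00108). Cyp51, the lanosterol demethylase, had 134 to 213 CPM (median 173) in young Myc ruxolitinib livers, against 183 to 344 CPM (median 252) in young mApple vehicle livers, a log2 fold change of -0.61 ± 0.12 (SE, adjusted p = 0.000675). In all 3 genes the groups met only at the lowest control liver, number 1132. Sc5d, the desaturase whose promoter holds the E-box printed above (gene at mm10 chromosome 9, 42254177 to 42264300), had 460 to 664 CPM (median 562) in young Myc ruxolitinib livers, against 487 to 1462 CPM (median 821) in young mApple vehicle livers, a log2 fold change of -0.66 ± 0.16 (SE, adjusted p = 0.00421). Hsd17b7, a 3-ketosterol reductase, fell by 0.43 on the log2 scale (adjusted p = 0.0184). Tm7sf2, a sterol reductase named after its values were seen because it fell outside the 14 smallest p-values, fell by 0.36 (adjusted p = 0.0446) and lost the call when any of 13 of the 16 livers was left out. Dhcr7, the last enzyme of the route, did not pass at -0.40 ± 0.16 (SE, adjusted p = 0.059), and Ebp did not pass at -0.15.

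**Figure D2:**
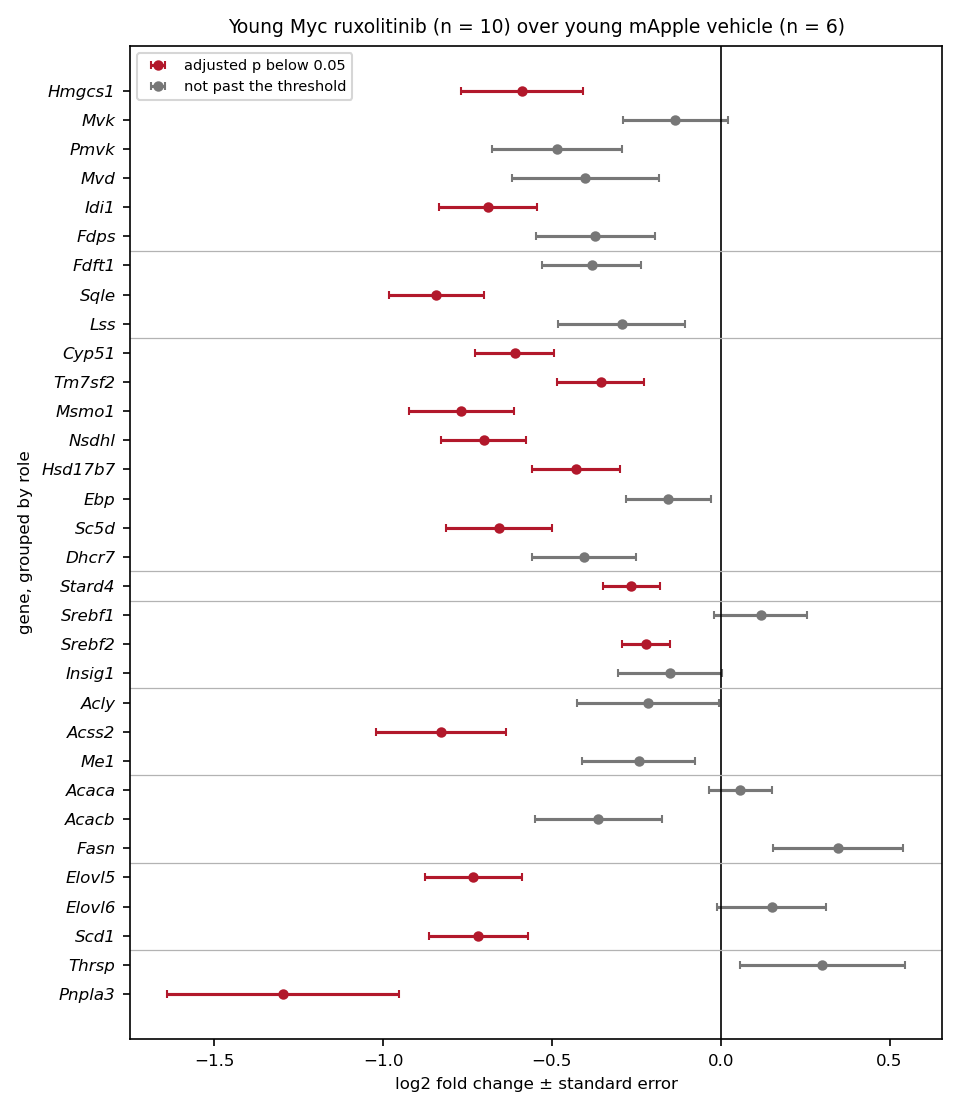
Log2 fold change with its standard error for each of the 32 genes in young Myc ruxolitinib livers (n = 10) over young mApple vehicle livers (n = 6), grouped by role from top to bottom. Red points passed the test, and all 15 of them lie below 0, from -0.22 for Srebf2 to -1.30 for Pnpla3.

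The regulators moved little. Srebf2 had 65.1 to 81.5 CPM (median 73.2) in young Myc ruxolitinib livers, against 73.3 to 103 CPM (median 83.04) in young mApple vehicle livers, and fell by 0.22 on the log2 scale (SE 0.071, adjusted p = 0.0253). Srebf1 had a median of 189 CPM in young Myc ruxolitinib livers and 190 CPM in young mApple vehicle livers, and Insig1 a median of 348 CPM in young Myc ruxolitinib livers and 409 CPM in young mApple vehicle livers. Neither passed, at log2 fold changes of 0.12 ± 0.14 and -0.15 ± 0.15 (SE). Stard4, which moves cholesterol between membranes, fell by 0.26 on the log2 scale (adjusted p = 0.025).

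The lipogenic genes were split. Scd1 (mm10 chromosome 19, 44394450 to 44407709) had 6650 to 13220 CPM (median 9894) in young Myc ruxolitinib livers, against 13540 to 21740 CPM (median 15140) in young mApple vehicle livers. No other gene of the 32 had groups without overlap in this comparison, and the share of such genes among all genes tested is not given here. Scd1 had a log2 fold change of -0.72 ± 0.15 (SE, adjusted p = 0.00123). Elovl5, an elongase of polyunsaturated fatty acids (mm10 chromosome 9, 77917365 to 77984519), had 393 to 878 CPM (median 674) in young Myc ruxolitinib livers, against 868 to 1306 CPM (median 1083) in young mApple vehicle livers, a log2 fold change of -0.73 ± 0.15 (SE, adjusted p = 0.000926). Acss2, which makes acetyl-CoA from acetate, had 134 to 387 CPM (median 204) in young Myc ruxolitinib livers, against 268 to 539 CPM (median 413) in young mApple vehicle livers, a log2 fold change of -0.83 ± 0.19 (SE, adjusted p = 0.00326). Pnpla3, a lipid droplet protein (mm10 chromosome 15, 84167816 to 84189521), had 1.73 to 6.62 CPM (median 2.69) in young Myc ruxolitinib livers, against 2.29 to 15.9 CPM (median 6.81) in young mApple vehicle livers, a log2 fold change of -1.30 ± 0.34 (SE, adjusted p = 0.0084). None of the 3 genes of malonyl-CoA and fatty acid synthesis itself passed. Fasn, fatty acid synthase, was at 0.35 ± 0.19 (SE, adjusted p = 0.194) and Acaca, acetyl-CoA carboxylase, at 0.06 ± 0.094. Acacb, the mitochondrial acetyl-CoA carboxylase, was at -0.36 (adjusted p = 0.165). Acly, ATP citrate lyase, did not pass either, at -0.22 ± 0.21.

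Neighbouring genes of the same pathways gave a mixed picture in young livers. Of 11 other SREBP regulators, Nfyb, an NF-Y subunit, fell by 0.43 on the log2 scale (adjusted p = 0.000171), Scap fell by 0.33 (adjusted p = 0.00165), and Mbtps2, the protease that releases SREBPs, rose by 0.59 (adjusted p = 0.000317). Of 11 other sterol genes tested, 2 rose and none fell: Tmem97, by 0.57 (adjusted p = 7.35e-06), and Acat1, by 0.26 (adjusted p = 0.00991). Of 16 other fatty acid and glyceride genes, 2 fell, the desaturase Fads1 by 0.62 (adjusted p = 0.000211) and the phosphatidate phosphatase Lpin1 by 1.28 (adjusted p = 0.00196), and 1 rose, Pgd, by 0.39. Of 10 genes of fasting and feeding, 1 passed, Igfbp1, lower by 1.02 (adjusted p = 0.0138). Of 12 clock genes, 11 were tested, 1 rose (Cry1) and 3 fell (Nr1d1, Per1 and Npas2). Hepatocyte markers moved in the same direction as the sterol enzymes: their summed level was 93140 to 121100 CPM in young Myc ruxolitinib livers, against 138400 to 231800 CPM in young mApple vehicle livers, with 5 of 11 lower, including Alb by 0.85 on the log2 scale and Apoa1 by 0.81. Summed proliferation markers were 12.0 to 56.4 CPM in young Myc ruxolitinib livers and 6.37 to 72.4 CPM in young mApple vehicle livers, with 0 of 6 past the test. Of 7 sinusoidal endothelial markers Lyve1 rose and Clec4g fell. The part of the clock genes and the hepatocyte markers in the sterol result was not tested. With control liver 1131 left out, 10 of the 32 genes passed, and with control liver 1132 left out, 18 did.

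In old livers of the second batch the same combined contrast, Myc and ruxolitinib over mApple and vehicle, gave no gene of the 32 past the test, against 10.9% of 13761 genes tested (6.52% higher and 4.35% lower). At an unadjusted p below 0.05 there were 5 of the 32, against 3848 of the 13761 genes tested. Of the 32 log2 fold changes 28 were below 0, with a median of -0.28, and the 10 treated and 4 control livers overlapped widely. Pnpla3 (-0.80 ± 0.61), Thrsp (0.77 ± 0.32) and Pmvk (-0.75 ± 0.26, SE) had the largest values, with adjusted p of 0.413, 0.135 and 0.0757. Pmvk, phosphomevalonate kinase, had 17.1 to 68.4 CPM (median 49.4) in old Myc ruxolitinib livers, against 49.1, 60.9, 98.3 and 102 CPM in the old mApple vehicle livers. Srebf2 had 62.4 to 97.5 CPM (median 76.2) in old Myc ruxolitinib livers, against 86.9, 88.7, 89.5 and 119 CPM in old mApple vehicle livers (log2 fold change -0.31 ± 0.12, SE, adjusted p = 0.106). Srebf1 was at -0.17 ± 0.26 and Insig1 at -0.39 ± 0.22 on the log2 scale (SE). DESeq2 called 1 gene here (Pmvk) and limma voom 5 (Pmvk, Sqle, Sc5d, Stard4 and Srebf2), all lower. The shares of all genes that DESeq2 and limma voom called are not given here, so these counts lack a background. In a single fit of all 58 libraries, chosen after seeing the data, 11 of the 32 genes passed for old livers, all lower, and 6 for young ones. That fit also held the first-batch old livers, and its share of all genes for the old contrast is not given here. Among the neighbouring lists, Mbtps2 rose by 0.51 on the log2 scale, Nfyb, Fads1 and Nr1h2 fell by 0.66, 0.45 and 0.31, and of 12 clock genes Per3 rose and Npas2 fell. Hnf4a was the only hepatocyte marker of 11 that fell, with summed levels of 102700 to 160700 CPM in old Myc ruxolitinib livers and 141500 to 168400 CPM in old mApple vehicle livers. Sinusoidal endothelial markers fell in 5 of 7 (84.5 to 250.1 CPM summed in old Myc ruxolitinib livers and 232 to 321 CPM in old mApple vehicle livers), and proliferation markers rose in 4 of 6 (17.6 to 147 CPM in old Myc ruxolitinib livers and 6.43 to 19.3 CPM in old mApple vehicle livers). Their part in the values of the 32 genes was not tested.

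The difference between the old and the young response was itself tested. It did not pass for any of the 32 genes, against 0.287% of 13609 genes tested. An unadjusted p below 0.05 was found for 0 of the 32 and for 1914 of all genes tested. The largest differences, old response minus young response, were Fasn at -0.60 ± 0.44, Msmo1 at 0.51 ± 0.29 and Pnpla3 at 0.49 ± 0.73 on the log2 scale (SE), with adjusted p of 0.563, 0.424 and 0.804. At these group sizes the data do not show that the response differed between ages, nor that it was alike.

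In old livers under vehicle, 4 of the 32 genes fell with Myc relative to mApple and none rose (12.5%), against 18.8% of 13547 genes tested in either direction (8.01% lower and 10.8% higher). The lipogenic genes held 3 of the 4, and the median log2 fold change of the 11 was -0.58, against -0.11 for the 17 sterol enzymes. Scd1 had 1676 to 15910 CPM (median 9253) in old Myc vehicle livers, against 1001 to 37510 CPM (median 17370) in old mApple vehicle livers. The control extremes, 1 very low liver and the highest value of all old livers, both lay outside the Myc range, and the log2 fold change was -1.17 ± 0.37 (SE, adjusted p = 0.0299). Elovl6, which elongates palmitate to stearate, had 59.3 to 271 CPM (median 154) in old Myc vehicle livers, against 44.0 to 826 CPM (median 245) in old mApple vehicle livers, a log2 fold change of -0.82 ± 0.24 (SE, adjusted p = 0.0216). Me1, malic enzyme, a source of NADPH (mm10 chromosome 9, 86581363 to 86695914), had 115 to 422 CPM (median 221) in old Myc vehicle livers, against 153 to 815 CPM (median 318) in old mApple vehicle livers, a log2 fold change of -0.68 ± 0.19 (SE, adjusted p = 0.0161). Tm7sf2, the only sterol enzyme that passed, had 64.5 to 144 CPM (median 93.4) in old Myc vehicle livers, against 105 to 177 CPM (median 122) in old mApple vehicle livers, a log2 fold change of -0.41 ± 0.13 (SE, adjusted p = 0.0315). Elovl5 missed the threshold at -0.68 ± 0.24 (SE, adjusted p = 0.0511), and Srebf1, Srebf2 and Insig1 did not pass at -0.31 ± 0.19, -0.18 ± 0.11 and -0.06 ± 0.25 (SE).

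Within batches the Myc effect under vehicle was uneven. In the first batch the log2 fold changes were -0.98 for Me1, -1.28 for Elovl6 and -1.14 for Scd1, all past the test, and -0.30 for Tm7sf2, which did not pass. In the second batch they were -0.32, -0.26 and -1.18 for the first 3 and -0.50 for Tm7sf2, none past the test, and 0 of the 32 genes passed in that batch alone. Without a batch term only Tm7sf2 passed. Without liver 870, the library with low Myc, the same 4 genes passed, and without 855, the library with high Myc, Me1 and Elovl6 did. Without both, a setting chosen after seeing the data, only Tm7sf2 passed (adjusted p = 0.00813), and the log2 fold changes of Me1, Elovl6 and Scd1 were -0.52, -0.73 and -1.06 (adjusted p = 0.0561, 0.0561 and 0.0724). The count of 4 became 1 without control liver 862 (Me1), 2 without 1135, and 7 without 1137, the liver with 1001 CPM of Scd1.

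Beside the 4 genes, Fads1 fell by 0.56 (adjusted p = 0.00249) and Elovl2 fell among the other fatty acid genes, Mbtps2 rose by 0.41 (adjusted p = 0.0125), Nfyb fell by 0.34 and Scap fell by 0.34. Fgf21, a hormone of fasting, fell by 1.15 on the log2 scale (adjusted p = 0.037). Summed hepatocyte markers were 97110 to 170900 CPM in old Myc vehicle livers and 141500 to 232500 CPM in old mApple vehicle livers, with 5 of 11 lower, sinusoidal endothelial markers were lower in 6 of 7, and proliferation markers higher in 6 of 6 (14.5 to 112 CPM in old Myc vehicle livers and 6.43 to 19.9 CPM in old mApple vehicle livers). Their part in the lipogenic result was not tested.

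Under ruxolitinib, 3 of the 32 genes fell in old Myc livers relative to old mApple livers and none rose (9.38%), against 14.4% of 14010 genes tested in either direction (5.96% lower and 8.4% higher). All 32 log2 fold changes were below 0, with a median of -0.29, -0.27 for the 17 sterol enzymes and -0.73 for the 11 lipogenic genes, while 48.9% of all genes were below 0. Elovl5 had 154 to 926 CPM (median 601) in old Myc ruxolitinib livers, against 313 to 1585 CPM (median 1207) in old mApple ruxolitinib livers, a log2 fold change of -1.17 ± 0.27 (SE, adjusted p = 0.00564). Pmvk had 11.6 to 68.4 CPM (median 43.3) in old Myc ruxolitinib livers, against 18.3 to 109 CPM (median 71.9) in old mApple ruxolitinib livers, a log2 fold change of -0.94 ± 0.20 (SE, adjusted p = 0.00311). Sc5d had 221 to 765 CPM (median 487) in old Myc ruxolitinib livers, against 364 to 997 CPM (median 708) in old mApple ruxolitinib livers, a log2 fold change of -0.65 ± 0.18 (SE, adjusted p = 0.0174). These 3 passed in every fit that left out 1 library, and also without libraries 860, 861, 864 and 865 together. Scd1 (-1.15 ± 0.48) and Pnpla3 (-0.96 ± 0.42, SE) had larger values than Pmvk and Sc5d but did not pass, with adjusted p of 0.112 and 0.125, and Srebf1, Srebf2 and Insig1 did not pass at -0.16 ± 0.21, -0.06 ± 0.088 and -0.21 ± 0.16 (SE).

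Within the first batch alone no gene of the genome passed this comparison, and the log2 fold changes of Elovl5, Pmvk and Sc5d were -1.31, -0.85 and -0.63. In the second batch alone they were -1.08, -0.98 and -0.66, all past the test, with 4 of the 32 genes called. The share of all genes called in that batch alone is not given here. Without a batch term only Elovl5 passed, and leaving out old Myc ruxolitinib liver 869 or 1157, or old mApple ruxolitinib liver 865, raised the count to 7, 5 and 6. Fads1 fell by 0.72 and Lpin1 by 1.15 on the log2 scale among the other fatty acid genes (adjusted p = 0.0014 and 0.00503), Nfyb fell by 0.43, Mbtps2 rose by 0.53, and Fgf21 fell by 1.43. Summed hepatocyte markers were 56330 to 192200 CPM in old Myc ruxolitinib livers and 62520 to 196800 CPM in old mApple ruxolitinib livers, with only Apoa1 of 11 lower. Sinusoidal endothelial markers fell in 2 of 7 (Kdr and Clec4g), as did the stellate marker Rgs5 and the bile duct marker Epcam, and 6 of 6 proliferation markers were higher. Of 12 clock genes Npas2 and Cry1 fell, and Acat2 fell among the other sterol genes. Their part in these 3 calls was not tested.

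**Figure D3:**
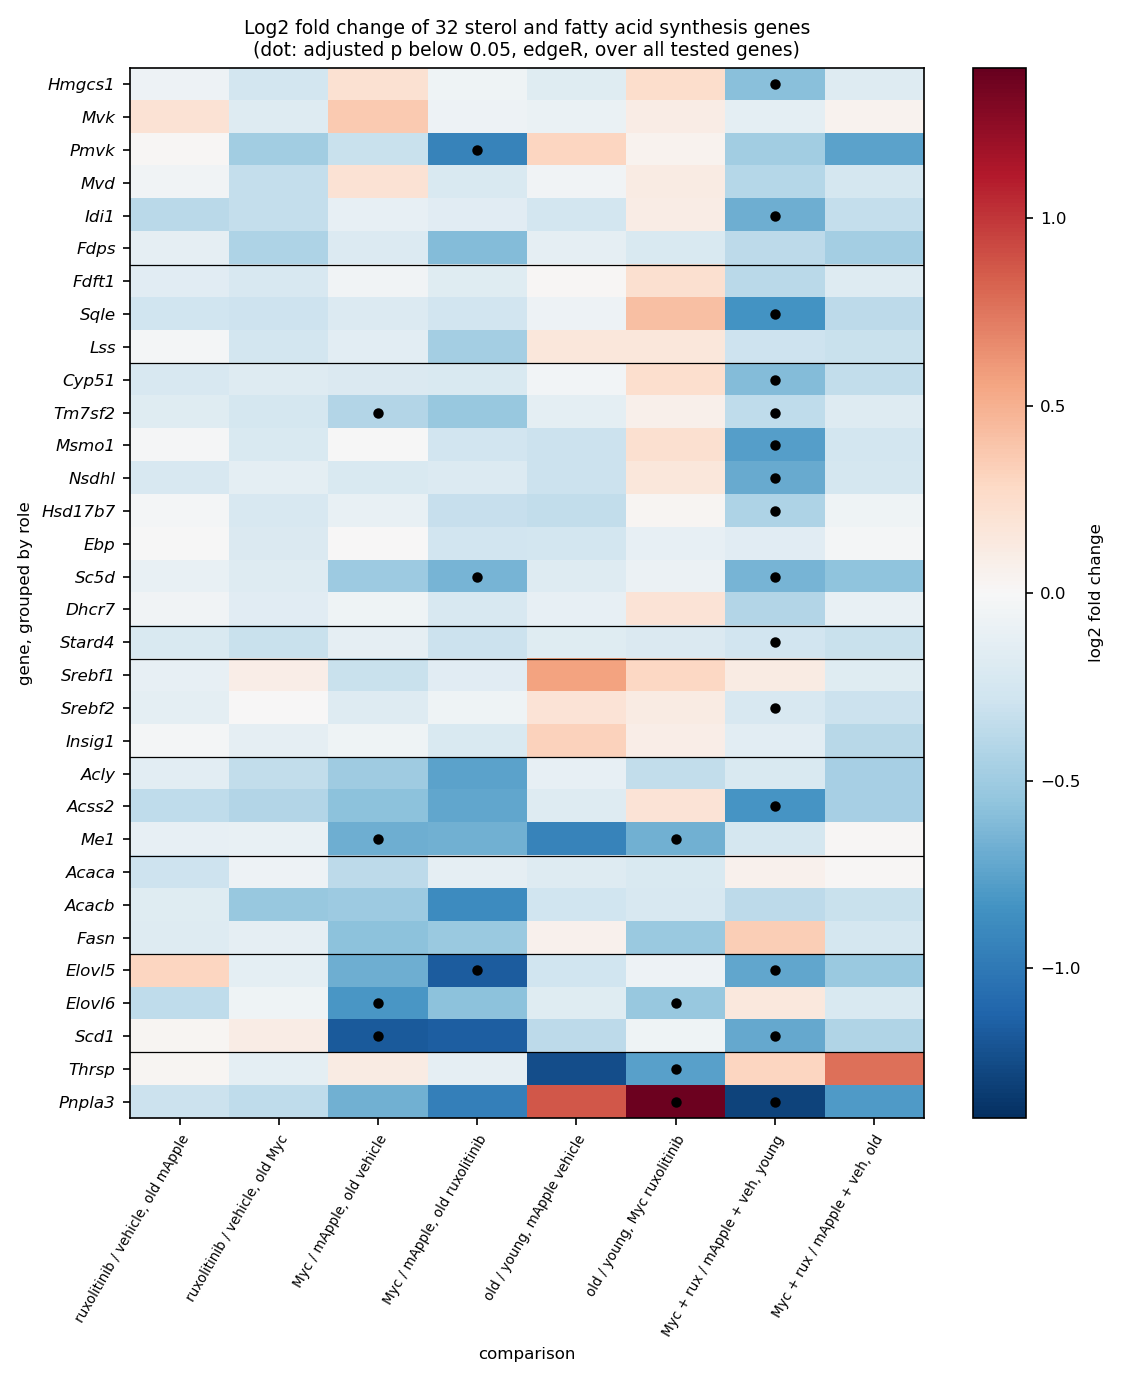
Log2 fold change (colour) of each of the 32 genes (rows, grouped by role) in 8 comparisons of 2 groups (columns, first-named group over second), with a dot where the adjusted p was below 0.05. The column for young Myc and ruxolitinib over mApple and vehicle has 15 dots, all blue, and both columns of ruxolitinib over vehicle have none.

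Ruxolitinib moved none of the 32 genes past the test in old livers, with mApple or with Myc. In mApple livers, 0.391% of 13554 genes passed in all (0.00738% higher and 0.384% lower). An unadjusted p below 0.05 was found for 0 of the 32 and for 1327 of all genes tested. Of the 32 log2 fold changes, ruxolitinib over vehicle, 27 were below 0, with a median of -0.12, against 47.6% of all genes below 0. They ran from -0.37 ± 0.20 for Idi1 to 0.30 ± 0.29 for Elovl5, with Acss2 at -0.35 ± 0.31 and Elovl6 at -0.35 ± 0.38 (SE). Scd1 had 8594 to 28960 CPM (median 18030) in old mApple ruxolitinib livers, against 1001 to 37510 CPM (median 17370) in old mApple vehicle livers. Srebf1, Srebf2 and Insig1 were at -0.12 ± 0.13, -0.14 ± 0.097 and -0.02 ± 0.20 on the log2 scale (SE). In mApple livers some lipogenic genes ran in opposite directions between batches. Median Elovl6 was 209 CPM with ruxolitinib and 477 CPM with vehicle in the first batch, but 154 and 96.8 CPM in the second. Median Thrsp was 255 and 416 CPM in the first batch, but 161 and 87.1 CPM in the second. Median Acss2 was lower with ruxolitinib in both, at 164.5 and 302 CPM, then 349 and 361 CPM. This difference between batches was not tested.

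In Myc livers, ruxolitinib over vehicle gave 0.545% of 13749 genes past the test (0.0436% higher and 0.502% lower) and none of the 32. Stard4 alone of the 32 had an unadjusted p below 0.05, at -0.32 ± 0.15 (SE, adjusted p = 0.349), while 1925 of all genes tested did. Of the 32 log2 fold changes 29 were below 0, including all 17 sterol enzymes (median -0.23), against 46.6% of all genes. The largest values were Acacb, the mitochondrial acetyl-CoA carboxylase, at -0.53 ± 0.35, Pmvk at -0.49 ± 0.26 and Fdps, farnesyl diphosphate synthase, at -0.44 ± 0.25 on the log2 scale (SE). Srebf1, Srebf2 and Insig1 were at 0.09 ± 0.23, 0.00 ± 0.10 and -0.13 ± 0.21. The test of whether the drug's effect differed between Myc and mApple livers passed for 0 of 14046 genes, with 735 genes and 0 of the 32 at an unadjusted p below 0.05. With standard errors up to 0.53 on the log2 scale, moderate changes of the most variable genes were not detectable at these group sizes. The comparisons of old livers share groups, since old mApple vehicle livers stand on the reference side of both the drug and the Myc contrast, so their values are set side by side and not counted as independent. No gene of the neighbouring sterol, fatty acid, regulator, fasting or clock lists passed in either drug comparison.

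**Figure D4:**
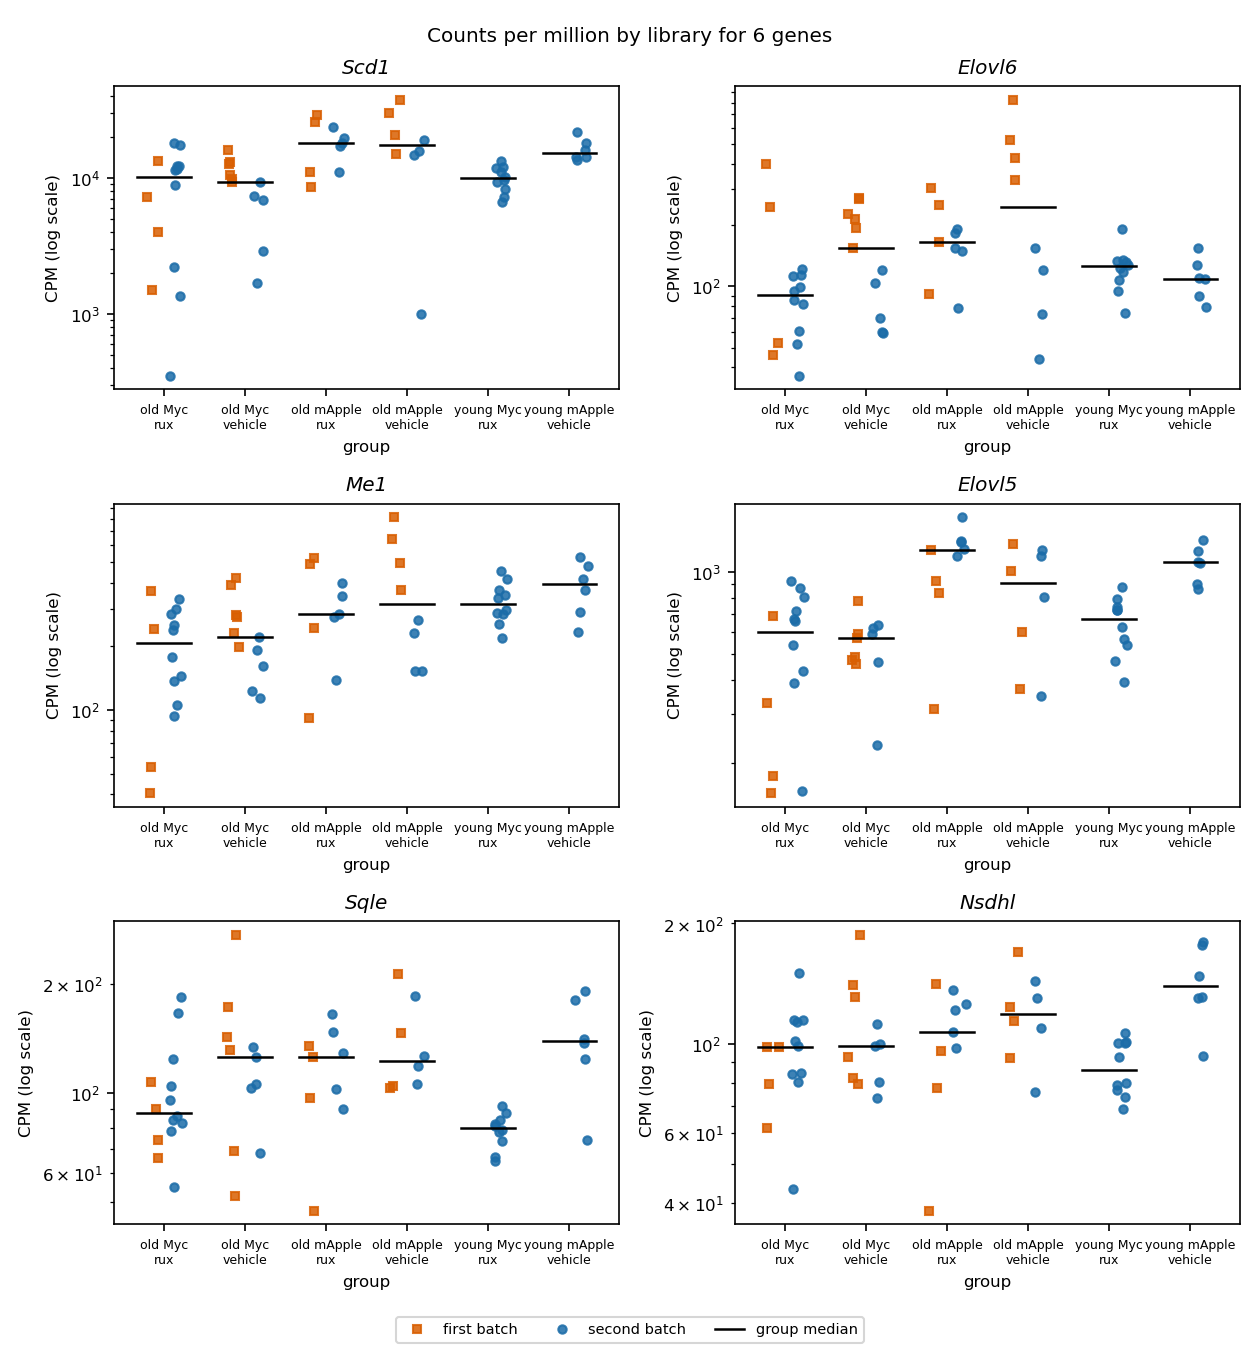
CPM on a log axis in each library for Scd1, Elovl6, Me1, Elovl5, Sqle and Nsdhl, by group, with squares for the first batch, circles for the second and a line at the group median. Scd1 reaches down to 351 CPM in old Myc ruxolitinib livers and to 1001 CPM in old mApple vehicle livers, while its young groups, 6650 to 13220 CPM with Myc and ruxolitinib and 13540 to 21740 CPM with mApple and vehicle, do not overlap.

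Old livers were compared with young ones in the second batch only. With mApple and vehicle, no gene of the 32 passed, against 1.1% of 13155 genes tested (0.859% higher and 0.243% lower). An unadjusted p below 0.05 was found for 3 of the 32 and for 2337 of all genes tested. Me1 had 153, 153, 231 and 268 CPM in old mApple vehicle livers, against 234 to 528 CPM (median 395) in young mApple vehicle livers, a log2 fold change of -0.93 ± 0.24 (SE, adjusted p = 0.0798). Thrsp, a lipogenic protein that responds to thyroid hormone, had 38.7, 64.1, 110 and 125 CPM in old mApple vehicle livers, against 74.6 to 306 CPM (median 213) in young mApple vehicle livers, a log2 fold change of -1.24 ± 0.38 (SE, adjusted p = 0.128). Srebf1 had 219, 257, 291 and 358 CPM in old mApple vehicle livers, against 154 to 258 CPM (median 190) in young mApple vehicle livers, a log2 fold change of 0.56 ± 0.17 (SE, adjusted p = 0.128). In all 3 genes the ranges of old and young livers overlapped. Stard4 alone of the 32 had ranges without overlap, at 126 to 136 CPM in old and 138 to 166 CPM in young mApple vehicle livers. It did not pass, at a log2 fold change of -0.165 (adjusted p = 0.384). The share of genes without overlap among all genes tested is not given here. Pnpla3 was at 0.87 ± 0.57, Srebf2 at 0.19 ± 0.12 and Insig1 at 0.33 ± 0.24 on the log2 scale (SE). DESeq2 called 3 genes (Srebf1 higher, Me1 and Thrsp lower), limma voom 2 (Srebf1 and Me1), and leaving out young liver 1129 gave the same 2. The shares of all genes called in these runs are not given here. No gene of the neighbouring pathway lists passed here, and among the markers Cd8a and the neutrophil genes S100a8, S100a9 and Csf3r rose.

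With Myc and ruxolitinib, old livers differed from young ones in 4 of the 32 genes (12.5%), 1 higher and 3 lower, against 33.7% of 12760 genes tested (18.1% higher and 15.6% lower). All 4 were lipogenic genes, 36.4% of the 11, which is near the 33.7% of all genes. Thrsp had 67.2 to 224 CPM (mean 146) in old Myc ruxolitinib livers, against 145 to 352 CPM (mean 248) in young Myc ruxolitinib livers, a log2 fold change of -0.76 ± 0.20 (SE, adjusted p = 0.00669). Me1 had 93.9 to 333 CPM (median 208) in old Myc ruxolitinib livers, against 218 to 454 CPM (median 319) in young Myc ruxolitinib livers, a log2 fold change of -0.67 ± 0.21 (SE, adjusted p = 0.0158). Elovl6 had 36.4 to 122 CPM (median 90.7) in old Myc ruxolitinib livers, against 73.8 to 191 CPM (median 126) in young Myc ruxolitinib livers, a log2 fold change of -0.53 ± 0.19 (SE, adjusted p = 0.0323). In all 3 the ranges of old and young livers overlapped. Pnpla3 had 0.683 to 17.8 CPM (median 8.18) in old Myc ruxolitinib livers, against 1.73 to 6.62 CPM (median 2.69) in young Myc ruxolitinib livers, and rose by 1.37 ± 0.40 on the log2 scale (SE, adjusted p = 0.0119), although the lowest liver was an old one. The young livers of this contrast are the same ones in which Pnpla3 fell against young controls.

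None of the 17 sterol enzymes passed between old and young Myc ruxolitinib livers. Their median log2 fold change was 0.11, with 14 above 0, and Sqle came nearest at 0.42 ± 0.17 (SE, adjusted p = 0.051). Srebf1, Srebf2 and Insig1 were at 0.29 ± 0.18, 0.12 ± 0.075 and 0.10 ± 0.15 (SE). Without old liver 1154, which had 351 CPM of Scd1, 8 of the 32 genes passed, adding Fdft1, Sqle, Cyp51 and Srebf1, all higher. Of 11 other sterol genes tested, 3 rose, the sterol exporters Abcg5 by 0.74 and Abcg8 by 0.84 and the acyltransferase Soat2 by 0.54 on the log2 scale, and 3 fell (Abca1, Tmem97 and Acat1). Of 16 other fatty acid genes 4 fell, Agpat2, Elovl2, Dgat2 and Gpam, and of 11 other regulators Mlxipl, which drives lipogenesis in response to glucose, fell by 0.43, Insig2 by 0.40 and Mbtps2 by 0.31. Of 12 clock genes 7 rose and 4 fell, including Dbp, higher by 3.33, and Cry1, lower by 1.51 on the log2 scale. Myc itself was lower in the old livers, at 24.4 to 45.6 CPM, against 36.1 to 61.5 CPM in the young ones, and 4 of 7 sinusoidal endothelial markers fell. Of 11 hepatocyte markers 2 rose (Alb and Apoa1) and 3 fell (Apob, Cps1 and Hnf4a), with summed levels of 102700 to 160700 CPM in old and 93140 to 121100 CPM in young Myc ruxolitinib livers. The Kupffer cell markers Cd5l, C1qa and C1qb rose, as did the B cell genes Cd79a and Cd79b, the neutrophil genes Csf3r and S100a9, the adipocyte marker Cidec (by 2.05 on the log2 scale), Spp1 and Ccnb1, and the stellate marker Reln fell. The part of the clock genes, of the Myc level and of these markers in the 4 calls was not tested.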

How the data were processed

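Polyadenylated RNA of 58 livers was sequenced as 2x75 base pairs. The submitters' processing notes name STAR, HOMER and the build mm10 (GRCm38), with versions not given in the sources used here. The authors deposited estimated counts per gene over exons, in steps of 0.5 (29.9% of values not whole), with 1 transcript kept per symbol. They were rounded to whole numbers and scaled by TMM in edgeR 4.0.16 (R 4.3.3). CPM are TMM-scaled, and log2 levels use a pseudocount of 1. Genes passing edgeR's filterByExpr with a minimum count of 10 were tested with its quasi-likelihood test, with a batch term where both sequencing batches entered, and p-values were adjusted by the Benjamini-Hochberg method over all genes tested. Standard errors are the absolute log2 fold change over the square root of F. Only libraries of the compared groups entered a fit.

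The labels give each liver as a separate sample, so p-values measure the spread between these samples. The 32 genes and all gene lists were chosen with earlier results of these data known. The text names Srebf1, Srebf2 and Insig1, every gene of the 32 past the threshold of 0.05 (the 14 smallest p-values where there were more), the 3 largest fold changes of each comparison, up to 4 passing genes of each neighbouring list, and Myc. Alternatives were DESeq2 1.42.0, limma 3.58.1 voom with quality weights, other size factors, no filter, no batch term, single batches, libraries left out and, chosen after seeing the data, a single fit of all 58 libraries and the removal of libraries 855 and 870 together. Tests were tried on simulated data. Python 3.11.15 and matplotlib 3.10.9 drew the figures.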

Additional observations from a re-analysis of the deposited data

Results flagged for a closer look

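In 7 of 128 tests of a gene in a group of 4 to 10 livers, 1 liver stood far from the others by Dixon's criterion, and chance flags about 1 in 20 such groups. In old mApple ruxolitinib liver 865, Sqle was at 47.3 CPM, against 90.2 to 165 CPM in the other livers of that group, and Nsdhl was at 38.3 CPM, against 77.7 to 141 CPM. Without this liver 6 of the 32 genes passed for Myc over mApple under ruxolitinib, in place of 3. In old mApple ruxolitinib liver 864, Elovl5 was at 313 CPM, against 834 to 1590 CPM in the other livers. In old mApple vehicle liver 1135, Srebf2 was at 119 CPM, against 73.8 to 89.5 CPM, and in liver 1137 of the same group Scd1 was at 1000 CPM, against 14600 to 37500 CPM. Without liver 1135 the Myc contrast under vehicle had 2 genes in place of 4, and without liver 1137 it had 7. In young mApple vehicle liver 1134, Tm7sf2 was at 80.3 CPM, against 158 to 177 CPM, and in liver 1132 of the same group Fasn was at 520 CPM, against 987 to 1260 CPM.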

How the results depend on the processing

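No fold change reversed under any alternative run: of the recomputed fold changes of called genes, 558 stayed on the same side of the threshold and 65 no longer passed. Myc over mApple under vehicle, with 4 called genes, had 7 by DESeq2, 1 without a batch term, 0 in the second batch alone, 1 without libraries 855 and 870 together and 1 in a single fit of all libraries, and 1 to 7 when single libraries were left out. Myc over mApple under ruxolitinib, with 3, had 6 by DESeq2, 1 without a batch term, 0 in the first batch alone, and 3 to 7 with single libraries left out. Old over young with mApple and vehicle, with 0, had 3 by DESeq2, 2 by limma voom, and 0 to 2 with single libraries left out. Old over young with Myc and ruxolitinib, with 4, had 3 to 8 with single libraries left out. Young Myc and ruxolitinib over mApple and vehicle, with 15, had 6 in a single fit of all libraries (Idi1, Sqle, Cyp51, Msmo1, Nsdhl and Sc5d), where 17.8% of 14024 genes passed, and 10 to 18 with single libraries left out. The same contrast in old livers, with 0, had 1 by DESeq2, 5 by limma voom, and 0 to 1 with single libraries left out. It had 11 in a single fit of all libraries, which included the first-batch old livers. Both ruxolitinib comparisons stayed at 0 with each library left out. Most of these counts have no share of all genes beside them, so they cannot be read against a background. The single fit and the removal of 855 and 870 together were chosen after seeing the data, and the cause of these shifts was not tested. No paired analysis was possible because library numbers are unique to each liver and no number is shared between groups.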

Other observations

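Among old mApple livers some lipogenic and sterol genes stood apart in opposite directions between batches, a split in which age (25 months in the first batch, 24 months in the second) and sequencing run cannot be told apart, and which was not tested. Elovl6 had 334 to 826 CPM in first-batch old mApple vehicle livers and 44.0 to 155 CPM in second-batch ones. Thrsp had 287 to 739 CPM in first-batch and 38.7 to 125 CPM in second-batch livers of the same group. Hmgcs1 ran the other way, with 148 to 348 CPM in first-batch and 444 to 915 CPM in second-batch livers. In old mApple ruxolitinib livers Hmgcs1 again did not overlap between batches, with 110 to 325 CPM in the first batch and 359 to 821 CPM in the second. Elovl6, at 91.9 to 305 CPM and 78.6 to 191 CPM, did overlap there. Hmgcs1 also overlapped in both old Myc groups, under vehicle with 141.5 to 675 CPM and 408 to 723 CPM. Elovl6 and Thrsp did not overlap between batches in old Myc vehicle livers. Elovl6 had 154 to 271 CPM in first-batch and 59.3 to 120 CPM in second-batch livers of that group. Thrsp had 229 to 851 CPM in first-batch and 34.0 to 152 CPM in second-batch ones. Both genes overlapped in old Myc ruxolitinib livers, where Stard4, Tm7sf2 and Ebp did not. These genes are examples. Among the others that did not overlap between batches in old mApple livers were Acaca, Me1, Fasn, Stard4 and Srebf2 under vehicle. Under ruxolitinib they included Pmvk, Idi1, Acss2, Fdps, Cyp51, Ebp and Stard4. The share of such genes among all genes is not given here.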
